A study of Mus musculus with 20 samples.

Results

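The 10 genes described here encode parts and products of T cells: the receptor complex (Cd3d, Cd3e, Cd3g and Trac), the co-receptors (Cd4, Cd8a and Cd8b1), the regulatory factor gene Foxp3, the checkpoint receptor gene Pdcd1 and the cytotoxic protease gene Gzmb. They were taken by symbol from the 20636 genes of the deposited table, and all 10 were found there. Their levels were followed in 15 pancreatic ductal adenocarcinomas of mice. Every mouse carried a shared oncogenic allele, the reporter Rosa26LSL-tdTomato/LSL-tdTomato and Ptf1aCreER, which drives tamoxifen-dependent Cre in acinar cells. KPT mice also carried Trp53fl/fl, KAT mice Arf-fl/fl (the Cdkn2A-Arf locus) and KPAT mice both, with 5 tumours in each group. The mice received 5 mg tamoxifen by gavage on each of 3 days when 8 to 10 weeks old, then aged until morbidity. The KT group, which has neither floxed suppressor, was not analysed here. The Cre is thus directed at acinar cells and not at the T cells whose genes are described. Whether each numbered tumour came from its own mouse is not stated, so p-values measure the spread between these tumours.

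A T cell recognises peptide antigen through a receptor made of an alpha and a beta chain, and the CD3 chains carry the signal into the cell. CD4 marks helper and most regulatory T cells and binds MHC class II, while CD8, a pair of alpha and beta chains, marks cytotoxic T cells and binds MHC class I. FOXP3 is the transcription factor that defines regulatory T cells, PD-1 (Pdcd1) is an inhibitory receptor of activated T cells, and granzyme B (Gzmb) is released by cytotoxic T cells and natural killer cells. Pancreatic ductal adenocarcinoma is known for dense stroma, many myeloid cells and few T cells.

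The 3 CD3 genes lie together on chromosome 9 of GRCm38 (GENCODE annotation). Cd3g (ENSMUSG00000002033, 44969572 to 44980431, minus strand) and Cd3d (ENSMUSG00000032094, 44981786 to 44987339, plus strand) point away from each other across a gap of 1354 bases. Cd3e (ENSMUSG00000032093, 44998740 to 45009627, minus strand) begins its far end 11400 bases beyond Cd3d. The co-receptor genes Cd8b1 (ENSMUSG00000053044, 71322788 to 71337494) and Cd8a (ENSMUSG00000053977, 71373427 to 71379173) are likewise neighbours on chromosome 6, both on the plus strand and 35932 bases apart. RefSeq start sites were matched for 7 of the 10 genes. The 250 bases before the start site of the 3 CD3 genes and of Cd8a are shown, 5′ to 3′ on the gene's strand, because these genes had their highest levels in the same tumours. Coordinates are chr9:44981536-44981785 (plus) for Cd3d, chr9:44980432-44980681 (minus) for Cd3g, chr9:45009612-45009861 (minus) for Cd3e and chr6:71373177-71373426 (plus) for Cd8a, all from RefSeq on GRCm38.p6. Capitals mark GGAA, the core of ETS factor sites, and CANNTG, the E-box, on either strand.
Cd3d: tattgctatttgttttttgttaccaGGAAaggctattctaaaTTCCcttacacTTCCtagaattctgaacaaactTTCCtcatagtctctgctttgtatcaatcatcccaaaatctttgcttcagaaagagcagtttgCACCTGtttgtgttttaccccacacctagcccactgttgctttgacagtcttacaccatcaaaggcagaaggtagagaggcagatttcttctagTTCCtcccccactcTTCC
Cd3g: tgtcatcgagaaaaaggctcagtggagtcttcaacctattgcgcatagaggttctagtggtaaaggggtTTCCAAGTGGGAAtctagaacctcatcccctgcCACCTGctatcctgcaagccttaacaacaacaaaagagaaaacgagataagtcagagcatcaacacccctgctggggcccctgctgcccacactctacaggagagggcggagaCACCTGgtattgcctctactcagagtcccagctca
Cd3e: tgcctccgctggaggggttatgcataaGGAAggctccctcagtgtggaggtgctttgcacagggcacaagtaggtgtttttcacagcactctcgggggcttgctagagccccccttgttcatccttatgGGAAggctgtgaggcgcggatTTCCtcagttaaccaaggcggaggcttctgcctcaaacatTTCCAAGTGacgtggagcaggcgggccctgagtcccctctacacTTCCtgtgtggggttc
Cd8a: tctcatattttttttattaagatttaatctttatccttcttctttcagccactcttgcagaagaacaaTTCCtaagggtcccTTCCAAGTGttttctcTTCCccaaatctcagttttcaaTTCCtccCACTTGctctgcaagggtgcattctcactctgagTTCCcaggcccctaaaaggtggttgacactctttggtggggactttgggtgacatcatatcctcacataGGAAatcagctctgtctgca

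GGAA occurred 6 times in the Cd3d window, 2 times in Cd3g, 5 times in Cd3e and 6 times in Cd8a, and at least once in 93.4% of all 32851 RefSeq windows of the same length. CANNTG occurred 1 time in Cd3d, 3 times in Cd3g, 1 time in Cd3e and 2 times in Cd8a, and in 66.2% of all windows. Some GGAA and CANNTG matches share a base. Neither TGTGGT, a RUNX site core (14% of all windows), nor TATAAA, the TATA box (12.4%), was found in these 4 windows. These matches describe letters in the windows and not bound sites.

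Depth, the reads counted on genes, was between 16622901 and 23039354 per KPT library. It was between 16704627 and 22124495 per KAT library and between 14696138 and 26248484 per KPAT library. Trp53 ranged from 22.7 to 26.3 deposited units in KPT, 32.9 to 57.2 in KPAT and 99 to 148 in KAT, where it was not floxed. Cdkn2a ranged from 216 to 335 in KPT, between 150 and 690 in KAT and between 268 and 907 in KPAT. Which exons are floxed is not stated in the labels, so these reads do not measure recombination. Library names run in separate ranges for the 3 groups, and a batch that followed them cannot be told apart from genotype.

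Reads of the 10 T cell genes were few in every tumour. The 10 genes together gave 2435 reads over the 15 libraries, 485 in KPT, 1646 in KAT and 304 in KPAT. Of the 150 gene and tumour values, 51 rested on 3 reads or fewer, and 15 were 0. A count of 0 allows up to 3 reads, and this covers counting error only. In KPT the summed reads were 218, 74, 72, 77 and 44 in tumours 1 to 5. In KAT they were 494, 51, 505, 352 and 244, and in KPAT 63, 114, 65, 39 and 23. Tumours 1, 3, 4 and 5 of KAT thus stood above all other tumours and held 65.5% of all reads, while KAT 2 lay among the KPT and KPAT tumours. KPT 1 was the highest tumour outside KAT. Both KAT 1 and KAT 3 were among the 4 highest of the 15 tumours for 10 of the 10 genes. KAT 5 was among them for 8 genes and KAT 4 for 7. In bulk tumour RNA, fewer T cells and less RNA per T cell cannot be told apart.

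**Figure D1:**
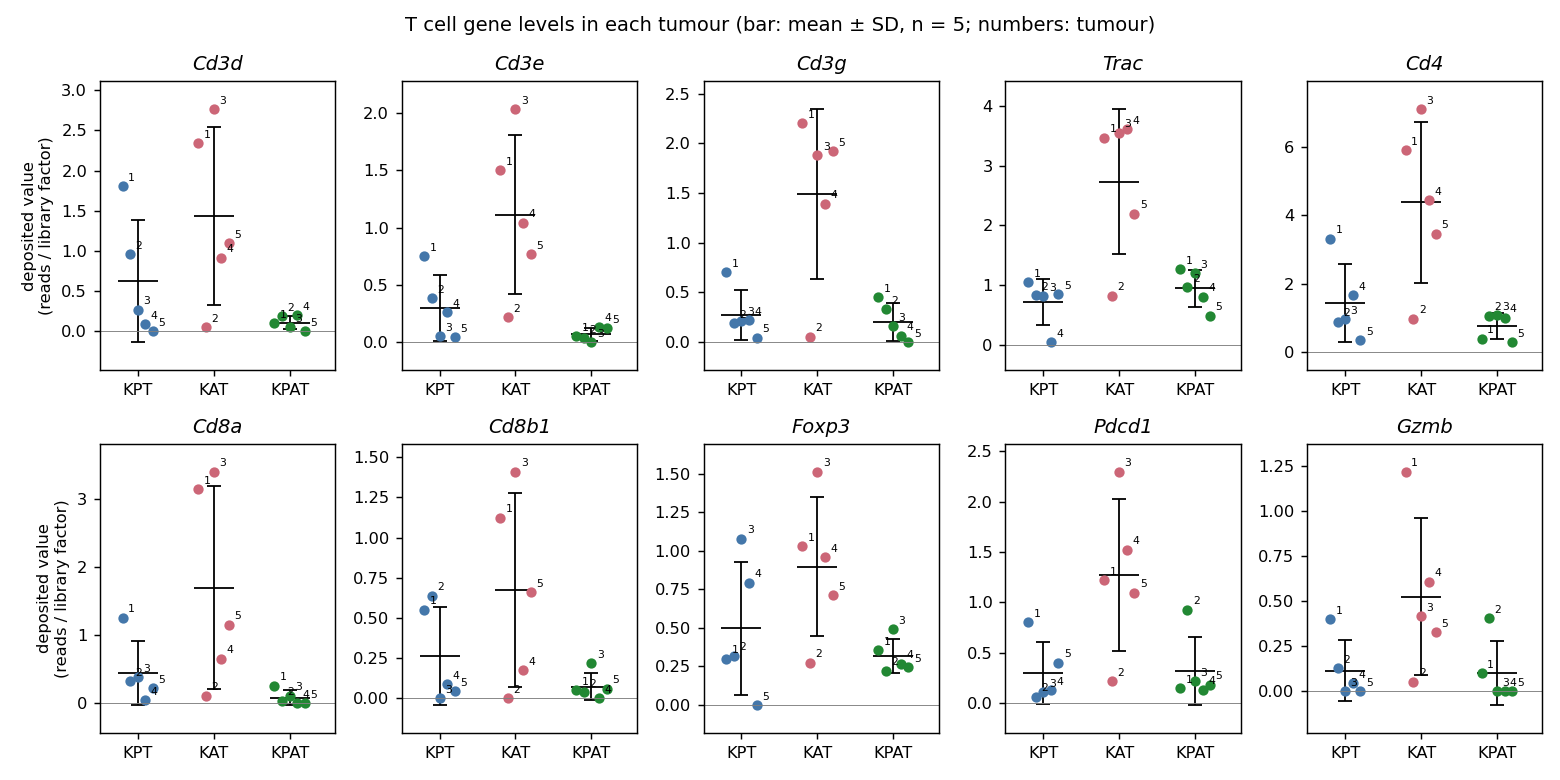
Level of each T cell gene in each tumour, in deposited units, which are reads scaled by 1 factor for each library, for KPT, KAT and KPAT. Points are tumours with their number, and bars give the mean ± SD (n = 5). KAT 2 lies apart from the other 4 KAT tumours in most panels, and KPT 1 is the highest KPT tumour for 8 of the genes, all but Cd8b1 and Foxp3.

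Of the receptor complex, Trac, the constant part of the alpha chain (ENSMUSG00000076928, chromosome 14, 54220521 to 54224206), had the most reads per length. It gave 21, 13, 15, 1 and 19 reads in KPT tumours 1 to 5, 74, 15, 68, 83 and 40 in KAT and 25, 26, 22, 12 and 8 in KPAT. All 4 KAT tumours other than KAT 2 were above every KPT and KPAT tumour. Its level was 0.717 ± 0.389 (SD, n = 5) in KPT, 2.73 ± 1.22 in KAT and 0.943 ± 0.314 in KPAT, in deposited units.

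Cd3g, which encodes the gamma chain of CD3, gave 14, 3, 4, 5 and 1 reads in KPT, 47, 1, 36, 32 and 35 in KAT and 9, 9, 3, 1 and 0 in KPAT. Its level was 0.275 ± 0.25 in KPT, 1.49 ± 0.854 in KAT and 0.204 ± 0.188 in KPAT. The KAT group again split into 4 tumours above all others and KAT 2 among the lowest. Cd3d, the delta chain gene, gave 36, 15, 5, 2 and 0 reads in KPT, 50, 1, 53, 21 and 20 in KAT and 2, 5, 1, 3 and 0 in KPAT. Its level was 0.625 ± 0.76 in KPT, 1.44 ± 1.11 in KAT and 0.108 ± 0.0855 in KPAT, so KPT and KAT overlapped widely while no KPAT tumour gave more than 5 reads. Cd3e, the epsilon chain gene, gave 15, 6, 1, 6 and 1 reads in KPT, 32, 4, 39, 24 and 14 in KAT and 1, 1, 0, 2 and 2 in KPAT. It was the one gene of the 10 in which every KPAT tumour lay below every KAT tumour, the lowest of which was KAT 2 with 4 reads. Of the 16648 genes with a mean of at least 10 normalized counts, which leave out Cd3e, 1.3% were lower in KPAT than in KAT without overlap. Its level was 0.3 ± 0.291 in KPT, 1.11 ± 0.693 in KAT and 0.0687 ± 0.0573 in KPAT.

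Among the co-receptors, Cd4 (ENSMUSG00000023274, chromosome 6, 124864692 to 124888221) had the most reads, 66, 14, 18, 38 and 8 in KPT, 126, 18, 136, 102 and 63 in KAT and 8, 29, 20, 15 and 5 in KPAT. Its level was 1.44 ± 1.15 in KPT, 4.38 ± 2.35 in KAT and 0.776 ± 0.388 in KPAT. Macrophages and dendritic cells of some tissues also make Cd4, and macrophage markers are given with their values further on. Cd8a, the alpha chain of CD8, gave 25, 5, 7, 1 and 5 reads in KPT, 67, 2, 65, 15 and 21 in KAT and 5, 1, 2, 0 and 0 in KPAT. Its level was 0.444 ± 0.47 in KPT, 1.69 ± 1.49 in KAT and 0.0797 ± 0.106 in KPAT, the lowest KPAT level relative to KAT of the 7 tested genes. Cd8b1, the beta chain, gave 11, 10, 0, 2 and 1 reads in KPT, 24, 0, 27, 4 and 12 in KAT and 1, 1, 4, 0 and 1 in KPAT. Both CD8 chains were highest in KAT 3 and KAT 1. KPT 1 came next for Cd8a, slightly above KAT 5, while KAT 5 came next for Cd8b1.

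Foxp3 (ENSMUSG00000039521, chromosome X, 7573644 to 7595245) gave 6, 5, 20, 18 and 0 reads in KPT, 22, 5, 29, 22 and 13 in KAT and 7, 6, 9, 4 and 4 in KPAT. KPT 3 and KPT 4 had the most Foxp3 reads outside KAT. They gave 7 and 1 Cd8a reads and 5 and 2 Cd3d reads, and outside KAT only KPT 1 had more Cd8a reads than KPT 3. Its level was 0.499 ± 0.431 in KPT, 0.898 ± 0.454 in KAT and 0.316 ± 0.11 in KPAT. Exons of Foxp3 overlap those of Ccdc22, Ppp1r3f, Flicr and Gm36995 in the annotation, and how the counting treated strand is not given, so its reads are uncertain. Cd3e overlaps the antisense gene Gm48719 and carries the same doubt.

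Pdcd1 (ENSMUSG00000026285, chromosome 1, 94038305 to 94052553) gave 16, 1, 2, 3 and 9 reads in KPT, 26, 4, 44, 35 and 20 in KAT and 3, 25, 4, 2 and 3 in KPAT. KPAT 2 held most of the KPAT reads. Its level was 0.302 ± 0.31 in KPT, 1.27 ± 0.751 in KAT and 0.323 ± 0.339 in KPAT. Gzmb (ENSMUSG00000015437, chromosome 14, 56258838 to 56262260) gave 8, 2, 0, 1 and 0 reads in KPT, 26, 1, 8, 14 and 6 in KAT and 2, 11, 0, 0 and 0 in KPAT. KPAT 2 was thus the KPAT tumour with most reads of both Pdcd1 and Gzmb. It also had the deepest library and the most KPAT reads of Trac (26), Cd4 (29) and Cd3d (5). It had 1 Cd3e and 1 Cd8a read. Granzyme genes are a family of similar copies, so the Gzmb reads are uncertain as well.

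The mean level was highest in KAT for 10 of the 10 genes and lowest in KPAT for 8, the exceptions being Trac and Pdcd1, whose KPT mean was the lowest. The KPT and KPAT ranges overlapped for every gene. Per kilobase of exon, the mean KAT level was 2.92 deposited units for Trac, 1.09 for Cd4, 0.791 for Cd3d, 0.659 for Pdcd1, 0.465 for Cd8a, 0.456 for Cd3g, 0.454 for Cd8b1, 0.366 for Gzmb, 0.273 for Cd3e and 0.196 for Foxp3. Trac stood above Cd4 by more than the SD of either gene between KAT tumours, and all later neighbours in this order differed by less than that spread.

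KAT against KPT asks how tumours with Arf floxed differ from those with Trp53 floxed. Of the T cell genes, Trac and Pdcd1 rose in KAT, and no member fell. Trac had a log2 fold change of 2.06 (SE 0.63, limma adjusted p = 0.0236) and Pdcd1 of 2.03 (SE 0.7, limma adjusted p = 0.0406). All fold changes come from log2(normalized count + 1) values, which understate changes of low genes, and p-values were adjusted by Benjamini-Hochberg over the 16648 genes with a mean of at least 10 normalized counts. Cd3e, Cd8b1 and Gzmb were under that minimum, so 7 members were tested. The minimum is a mean over all 15 libraries. Cd3g, Cd8a, Foxp3 and Pdcd1 averaged under 10 normalized counts in KPT and in KPAT, and passed only through KAT. Their fold changes and calls in comparisons with KAT are therefore not independent of that filter. The 2 of 7 called compare with 28.9% of all tested genes in this comparison, and 15.6% called higher, so their number is not a result about the T cell genes. All 7 had a fold change above 0, as had 51.6% of all tested genes, and none separated KAT fully from KPT, beside 9.24% of genes separated with KAT higher and 8.38% with KAT lower. Cd3g had a log2 fold change of 2.0 (SE 0.87, adjusted p = 0.0971), Cd4 of 1.65 (SE 0.61, adjusted p = 0.054), Cd8a of 1.62 (SE 0.88, adjusted p = 0.175), Cd3d of 1.51 (SE 1.01, adjusted p = 0.277) and Foxp3 of 1.21 (SE 0.7, adjusted p = 0.205), all by limma.

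Each of these calls depended on single tumours. Over the fits that left out 1 library, the number of members called ran from 0 to 5. Without KAT 2 it was 5 (Cd3g, Cd4, Cd8a, Pdcd1 and Trac), beside 27.2% of all genes. Without KAT 3 or KAT 4 it was 0, and Trac then had adjusted p = 0.055 and 0.0576. The Pdcd1 call also ended without KPT 2, KPT 3, KPT 4, KAT 1 or KAT 5 (limma adjusted p up to 0.0987 over these fits). edgeR on the recovered reads called Cd3g, Pdcd1 and Trac, and DESeq2 called these and Cd4. A fit of these groups alone called none of the 7, with 4 at an unadjusted p under 0.05.

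**Figure D2:**
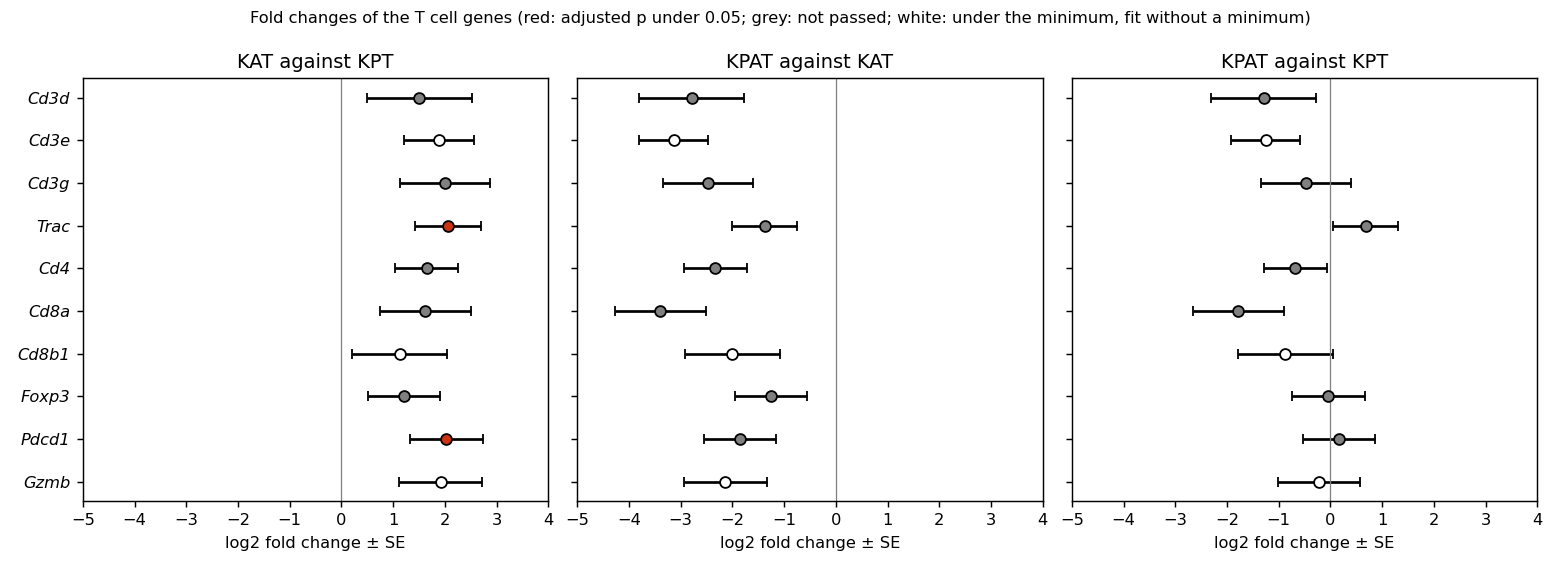
Fold change of each T cell gene (log2, points) with its SE (bars) in each comparison, by limma. Red points are Trac and Pdcd1, the members called in KAT against KPT, and white points are Cd3e, Cd8b1 and Gzmb, shown from the fit without a minimum. Points lie above 0 in KAT against KPT, below 0 in KPAT against KAT and on both sides of 0 in KPAT against KPT, with Trac the highest at 0.68.

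KPAT against KAT asks what the floxed Trp53 allele adds to a floxed Arf allele. Levels of all 10 T cell genes averaged lower in KPAT, and no member passed adjustment by limma. Cd8a had a log2 fold change of -3.4 (SE 0.88, adjusted p = 0.197) and Cd4 of -2.33 (SE 0.61, adjusted p = 0.206). The other values were -2.79 for Cd3d (SE 1.01, adjusted p = 0.341), -2.47 for Cd3g (SE 0.87, adjusted p = 0.331), -1.86 for Pdcd1 (SE 0.7, adjusted p = 0.35), -1.38 for Trac (SE 0.63, adjusted p = 0.446) and -1.25 for Foxp3 (SE 0.7, adjusted p = 0.535), by limma. Few genes of any kind were called here, 8 of 16648 or 0.0481%. An unadjusted p under 0.05 with a lower level was reached by 6 of the 7 members, beside 6.01% of all tested genes. Of the 7, Cd3g, Cd8a, Foxp3 and Pdcd1 passed the minimum only through KAT, so this count is no test of the T cell genes. Of the other tools, edgeR called none of the 7, DESeq2 called Cd4 (log2 fold change -2.5, adjusted p = 0.00741) and Cd8a (-4.38, adjusted p = 0.00793) beside 1.71% of all genes. Weighting the libraries by their quality in limma called Cd3g, Cd4 and Cd8a beside 3.09%. Without KAT 2 all 7 members had an unadjusted p under 0.05 and none was called, the smallest adjusted p being 0.0508 for Cd8a.

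The last comparison, of KPAT with KPT, concerns the added Arf-fl/fl in tumours that share Trp53fl/fl. None of the 7 tested members was called by limma, edgeR or DESeq2, beside 16.5% of all genes by limma, 9.13% higher and 7.4% lower. That share was 10.1% without KPAT 2 and 10.4% without KPT 3, KAT 2 and KPAT 5, where again no member was called. No member separated the groups fully, beside 5.03% of genes with KPAT higher and 4.93% with KPAT lower. None reached an unadjusted p under 0.05 by limma, and Cd3d and Cd8a did so by edgeR and by DESeq2. The lowest limma value was that of Cd8a, -1.78 (SE 0.88, adjusted p = 0.174), with 3 of 5 KPAT tumours below every KPT tumour. The lowest KPT tumour, KPT 4, gave 1 Cd8a read, as did KPAT 2, so these differ only by the library factor. KPAT 4 and KPAT 5 gave 0. Cd3d was at -1.29 (SE 1.01, adjusted p = 0.404), Cd4 at -0.68 (SE 0.61, adjusted p = 0.473), Cd3g at -0.47 (SE 0.87, adjusted p = 0.751) and Foxp3 at -0.04 (SE 0.7, adjusted p = 0.978), by limma. Trac was at 0.68 (SE 0.63, adjusted p = 0.479) and Pdcd1 at 0.17 (SE 0.7, adjusted p = 0.896) by limma. The 3 comparisons share their groups, so their values are not independent of each other.

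Without a minimum all 10 members could be fitted. Cd3e then had a log2 fold change of 1.89 (SE 0.67, limma adjusted p = 0.0507) in KAT against KPT and of -3.14 (SE 0.67, limma adjusted p = 0.119) in KPAT against KAT. Gzmb had 1.92 (SE 0.8, limma adjusted p = 0.0918) and -2.14 (SE 0.8, limma adjusted p = 0.361), and Cd8b1 1.13 (SE 0.92, limma adjusted p = 0.395) and -2.0 (SE 0.92, limma adjusted p = 0.462). In KPAT against KPT the values were -1.25 for Cd3e, -0.22 for Gzmb and -0.87 for Cd8b1, none called. Over the 10 genes the median was 1.77 in KAT against KPT, -2.23 in KPAT against KAT and -0.57 in KPAT against KPT, beside 0.06, -0.02 and 0.02 over all 20636 genes. The calls remained Trac and Pdcd1 in KAT against KPT, beside 24.3% of all genes, and none in the other comparisons.

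**Figure D3:**
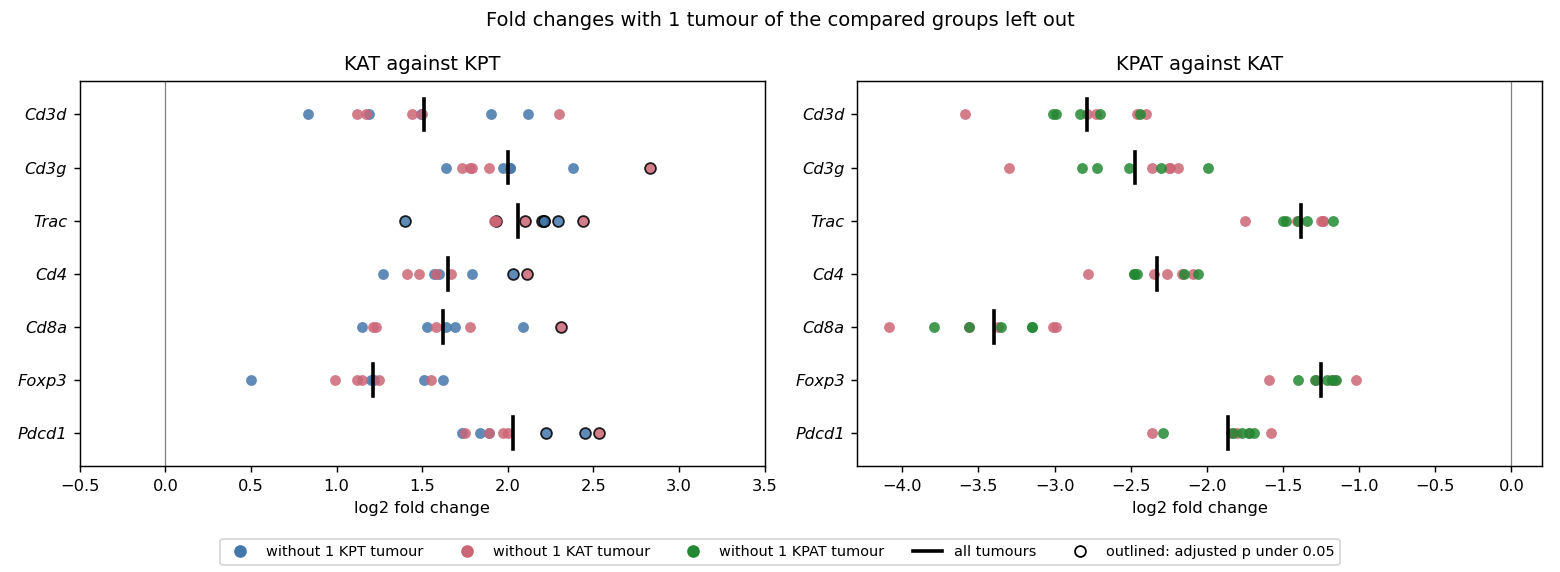
Fold change (log2) of the 7 tested T cell genes with 1 tumour of the compared groups left out (points, coloured by the group of that tumour) and with all tumours (black bars). Outlined points have an adjusted p under 0.05. In KAT against KPT the fit without KAT 2 gives the highest value of each gene except Foxp3, and in KPAT against KAT it gives the lowest value of all 7.

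The balance between co-receptors was compared as a log2 ratio within each tumour, which does not depend on library scaling except through the pseudocount. Cd8a to Cd4 was -1.36, -1.35, -1.25, -4.18 and -0.57 in KPT, -0.9, -2.69, -1.05, -2.67 and -1.54 in KAT and -0.58, -3.67, -2.83, -4.36 and -2.79 in KPAT. Cd4 exceeded Cd8a in every tumour and the groups overlapped. The mean was -1.74 ± 1.4 in KPT, -1.77 ± 0.86 in KAT and -2.85 ± 1.42 in KPAT. Exact two-sided permutation tests gave p = 0.976 for KAT against KPT, 0.198 for KPAT against KAT and 0.206 for KPAT against KPT (0.976, 0.413 and 0.413 after adjustment over the 6 ratio tests). With a pseudocount of 8 the difference of KPAT from KAT turned from -1.08 to 0.12, so this ratio has no settled direction at these read numbers.

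Foxp3 to Cd4 sets the regulatory gene beside a co-receptor gene. Cd4 of other cells and the uncertain Foxp3 reads limit it as a measure of regulatory T cells. The log2 ratio was -3.25, -1.35, 0.14, -1.03 and -2.99 in KPT, -2.46, -1.67, -2.19, -2.15 and -2.2 in KAT and -0.17, -2.04, -1.07, -1.73 and -0.27 in KPAT. The KAT tumours lay close together and the KPT tumours ranged most widely. The mean was -1.7 ± 1.42 in KPT, -2.14 ± 0.29 in KAT and -1.06 ± 0.84 in KPAT. The ratio was 1.08 higher in KPAT than in KAT (exact two-sided permutation p = 0.0238, 0.143 adjusted), which did not pass. It was 0.64 higher in KPAT than in KPT (exact permutation p = 0.397, 0.595 adjusted) and 0.44 lower in KAT than in KPT, a difference of -0.44 (exact permutation p = 0.524, 0.629 adjusted). The ratios that involve Cd8b1, Cd3e and Gzmb were not tested because those genes were under the minimum. Cd8a and Foxp3 passed the minimum only through KAT, so the tests of both ratios in comparisons with KAT are not independent of that filter.

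Other genes of the pathway were counted from lists, and each count is read beside the share of all tested genes. The minimum is a mean over all 15 libraries, so a listed gene or marker can pass it only through KAT. Calls of such genes in comparisons with KAT, and list medians that include them, are not independent of that filter. Over all genes, 15.6% were higher and 13.3% lower in KAT against KPT, in KPAT against KPT 9.13% were higher and 7.4% lower, and in KPAT against KAT 0.0481% were called. Of 22 genes of T cell receptor signalling 18 were tested. In KAT against KPT 2 of 18 were higher, Lcp2 and Trbc1, and none lower (median log2 fold change 1.39, beside 0.03 over all genes). Lcp2, an adaptor of receptor signalling also used by myeloid cells, was at 16.8 ± 4.26 in KAT and 5.93 ± 2.63 in KPT. The limma log2 fold change was 1.57 (SE 0.36, adjusted p = 0.00579), and it was 0.8 (SE 0.36, adjusted p = 0.143) in KPAT against KPT. In KPAT against KAT none of the 18 was called (median -1.72, beside 0). The smallest p belonged to Lat, a membrane adaptor (log2 fold change -2.12, SE 0.51, adjusted p = 0.168), and Zap70, the kinase that binds the CD3 chains (-2.26, SE 0.64, adjusted p = 0.242). In KPAT against KPT 1 was higher, Trbc2, and none lower (median -0.33, beside 0.02).

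The beta chain constant genes did not follow the CD3 genes. Trbc2 was at 7.87 ± 7.44 in KPAT and 1.61 ± 0.789 in KPT, a limma log2 fold change of 1.88 (SE 0.59, adjusted p = 0.0405). Its reads were 51, 47, 218, 284 and 67 in KPAT tumours 1 to 5, against 47, 30, 22, 49 and 10 in KPT and 84, 66, 95, 93 and 59 in KAT. KPAT 3 and KPAT 4 had the most, although they held 1 and 3 Cd3d reads. Trbc1 gave 319 reads in KPAT 3 and 174 in KAT 2, the tumours with the most, where Trac gave 22 and 15. Its level was 5.26 ± 2.8 in KAT and 1.28 ± 0.542 in KPT, a limma log2 fold change of 1.93 (SE 0.65, adjusted p = 0.0382). The calls ended when single tumours were left out. For Trbc2 these were KPT 2, 3 or 5, KAT 3, 4 or 5, or KPAT 3, 4 or 5. For Trbc1 they were KPT 1, 2, 3 or 4 or KAT 1, 2 or 4. Over the alternatives with a minimum, by limma, edgeR or DESeq2, adjusted p was up to 0.106 for Trbc2 and 0.128 for Trbc1. The constant segments of both genes are near-identical copies, so reads can be split between them, and the value of each gene alone is uncertain. KPAT 3 and KPAT 4 gave 319 and 111 Trbc1 reads and 218 and 284 Trbc2 reads, beside 22 and 12 Trac reads. The cause of this difference was not tested.

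Of 14 cytotoxic and type 1 effector genes only 3 reached the minimum. In KAT against KPT 2 were higher, Il2rb, an interleukin 2 receptor chain (log2 fold change 1.68, SE 0.51, adjusted p = 0.0233), and Ccl5, a chemokine of activated T cells (2.07, SE 0.69, adjusted p = 0.0356), with a list median of 1.68. Without KAT 3 or KAT 4 neither was called, and the Ccl5 call also ended without KPT 2, 3 or 4, KAT 1 or KAT 5 (adjusted p up to 0.0823). None was called in KPAT against KAT (median -1.96), where Il2rb was at -1.96 (SE 0.51, adjusted p = 0.197) and Ccl5 at -2.33 (SE 0.69, adjusted p = 0.253). None was called in KPAT against KPT (median -0.26), where Ctsw, a protease gene of cytotoxic cells, was at 0.77 (SE 0.47, adjusted p = 0.277) and Il2rb at -0.29 (SE 0.51, adjusted p = 0.732). Of 11 regulatory T cell genes 9 were tested, and 3 of 9 were higher in KAT than in KPT, beside 15.6% of all genes (median 1.06). They were Il2ra, the high-affinity interleukin 2 receptor chain (1.46 ± 0.459 against 0.327 ± 0.238, log2 fold change 2.16, SE 0.5, adjusted p = 0.00593), Tnfrsf18, which encodes GITR (log2 fold change 1.36, SE 0.32, adjusted p = 0.00599), and Lrrc32. These 3 calls held under every alternative checked, which left out the fits without a minimum (adjusted p up to 0.0407). None was called in KPAT against KAT (median -0.95), where Icos, a costimulatory receptor gene, was at -2.67 (SE 0.75, adjusted p = 0.236) and Ctla4 at -2.82 (SE 0.81, adjusted p = 0.248). In KPAT against KPT 1 was lower, Ctla4, an inhibitory receptor, at 0.215 ± 0.196 in KPAT and 1.45 ± 0.678 in KPT (limma log2 fold change -2.77, SE 0.81, adjusted p = 0.0311), and the list median was -0.28. Lrrc32, which encodes the TGF-beta docking receptor GARP, was at 1.08 there (SE 0.38, limma adjusted p = 0.0667). Its level was 26.1 in KPT and 55.6 in KPAT, against 0.499 and 0.316 for Foxp3. The part of other cells in the Lrrc32 values was not tested. The Ctla4 call ended in 10 of the other settings (adjusted p up to 0.0761), among them edgeR, a pseudocount of 8 and the fits without KPT 1, 2 or 3 or KPAT 1, 2 or 5.

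Of 15 checkpoint receptors and ligands 11 were tested. In KAT against KPT 7 of 11 were higher, beside 15.6% of all genes, and 1 lower, beside 13.3% (median 0.98). Pdcd1lg2, which encodes the PD-1 ligand PD-L2, was at 2.45 ± 1.25 in KAT and 0.402 ± 0.267 in KPT (limma log2 fold change 2.5, SE 0.59, adjusted p = 0.00688). Entpd1, the ectoenzyme CD39, was at 43.1 ± 12.7 in KAT, 35.8 ± 10.2 in KPAT and 21.2 ± 5.06 in KPT, higher than KPT in KAT (log2 fold change 1.01, SE 0.23, adjusted p = 0.00494) and in KPAT (0.75, SE 0.23, adjusted p = 0.0352). Myeloid cells make many of these molecules, and the others that rose in KAT were Vsir, Havcr2, Cd86, Btla and Cd80, while Tox fell. Tox is a factor of exhausted T cells, and the part of other cells in its values was not tested. The calls of Vsir, Cd86, Cd80 and Tox were not checked under the alternatives. In KPAT against KPT Entpd1 was the only one of the 11 called (median 0.7), and Havcr2, which encodes TIM-3, was at 0.81 (SE 0.31, adjusted p = 0.0853). That Entpd1 call ended without KPT 3, 4 or 5 or KPAT 1, 2 or 3 (adjusted p up to 0.0903), and the Havcr2 call in KAT ended without KPT 1 or 2 or KAT 2, 3, 4 or 5 (adjusted p up to 0.201). In KPAT against KAT none was called (median -0.65), with Btla, an inhibitory receptor gene, at -2.51 (SE 0.78, adjusted p = 0.287) and Cd274, which encodes PD-L1, at -1.06 (SE 0.39, adjusted p = 0.341).

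Of 14 T cell chemokines and receptors 11 were tested, and 6 of 11 were higher in KAT than in KPT, beside 15.6% of all genes (median 2.11). Ccl17, a ligand of CCR4, was at 34.4 ± 13.2 in KAT, 17.3 ± 11 in KPAT and 3.91 ± 2.57 in KPT (KAT against KPT, log2 fold change 3.35, SE 0.6, adjusted p = 0.00136). Cxcl9, Ccl22, Ccr7 and Cxcr6 were among the others, and the calls of Cxcl9 and Cxcr6 were not checked under the alternatives. In KPAT against KPT 2 of the 11 were higher (list median 0.53), among them Ccl17 (log2 fold change 2.11, SE 0.6, adjusted p = 0.0269), and that Ccl17 call ended without KPT 1 or 3 or KPAT 2 or 3 (adjusted p up to 0.0667). None was called in KPAT against KAT (median -0.66), where Ccr7, a homing receptor gene of lymphocytes and dendritic cells, was at -2.33 (SE 0.68, adjusted p = 0.248) and Ccl22 at -2.79 (SE 0.81, adjusted p = 0.248). Of 11 gamma-delta T cell and type 17 genes 5 were tested. In KAT against KPT Cd163l1, a scavenger receptor gene of gamma-delta T cells, was higher (log2 fold change 3.39, SE 0.91, adjusted p = 0.0133) and 1 other of the 5 was lower, with a list median of 1.27. None of the 5 was called in KPAT against KPT (median 0.26), where Blk, a kinase gene shared with B cells, was at -1.34 (SE 0.87, adjusted p = 0.303). None was called in KPAT against KAT (median -0.81), where Blk was at -2.61 (SE 0.87, adjusted p = 0.319) and Cd163l1 at -2.62 (SE 0.91, adjusted p = 0.322). The level of Cd163l1 was 1.86 in KAT, 0.13 in KPT and 0.213 in KPAT. It passed the minimum only through KAT, so its call and its values against KAT are not independent of that filter.

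B cell and plasma cell markers were high in the same KAT tumours as the T cell genes, while macrophage and leukocyte markers were not low in KAT 2. The summed level of 12 B cell and plasma cell markers was 686, 30.4, 852, 1238 and 536 deposited units in KAT tumours 1 to 5, and KAT 2 had the least of these as well. It ranged from 42.4 to 270 in KPT, with KPT 1 the highest, and from 20.3 to 446 in KPAT. The highest KPAT sums were those of KPAT 1 (446) and KPAT 3 (236), which gave 63 and 65 reads of the 10 T cell genes. The tumours rich in T cell reads within KAT were thus also those with the highest B cell and plasma cell sums, and the part of lymphoid tissue inside the samples in these values was not tested. Of the 12 markers, 4 were higher in KAT than in KPT, beside 15.6% of all genes. None was called in KPAT against KPT, or in KPAT against KAT, where 0.0481% of all genes were. The 4 lymph node stroma markers summed to 31.9 to 89.3 in KAT, 3.65 to 46 in KPT and 0.973 to 72.9 in KPAT, none called.

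KAT 2 did not lack leukocytes. The 6 markers of all leukocytes summed to 408 there, against 414, 416, 555 and 424 in the other KAT tumours, 108 to 181 in KPT and 142 to 356 in KPAT. All 6 were higher in KAT than in KPT, and 4 were higher in KPAT than in KPT. Over all tested genes 15.6% were higher in KAT than in KPT and 9.13% in KPAT than in KPT. The same shares apply to the macrophage and dendritic cell counts that follow. The macrophage sum of KAT 2 was 2708, within the KAT range of 1617 to 3080, while KAT 2 gave 18 Cd4 reads. The macrophage sum ranged from 616 to 1066 in KPT and from 910 to 1915 in KPAT, with 8 of the 10 markers higher in KAT than in KPT and 5 higher in KPAT than in KPT. The 8 dendritic cell markers summed to 4.43 to 9.04 in KPT and 8.45 to 14.2 in KPAT. In KAT tumours 1 to 5 they summed to 20.6, 9.33, 24.6, 27.2 and 21. KAT 2 was thus the lowest KAT tumour for these markers, as it was for the T cell reads. Of 5 dendritic cell markers tested, 4 were higher in KAT than in KPT and 1 was higher in KPAT than in KPT. The part of these cells in the Cd4 and Pdcd1 values was not tested.

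**Figure D4:**
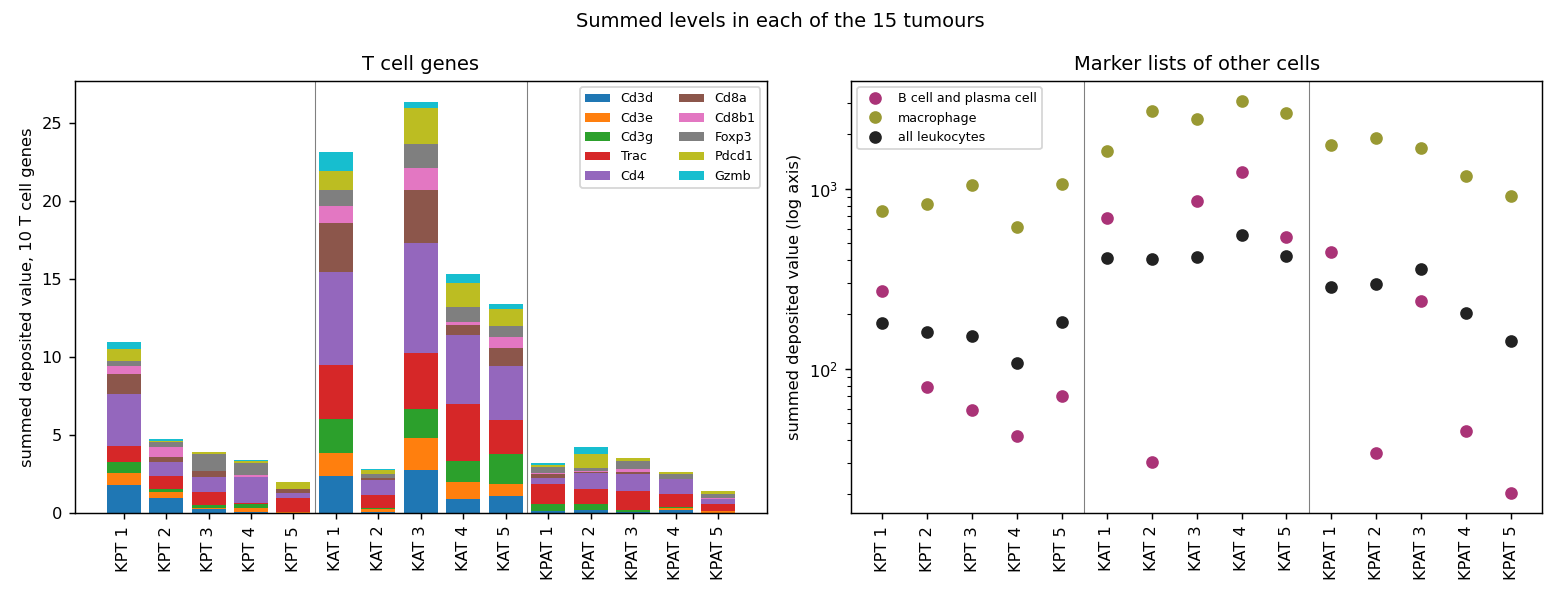
Summed deposited values in each of the 15 tumours: the 10 T cell genes stacked (left, linear axis) and marker lists of B and plasma cells, macrophages and all leukocytes (right, log axis). KAT 1, 3, 4 and 5 have the highest T cell sums, and KAT 2 combines a low T cell and B cell sum (30.4) with a leukocyte sum (408) like that of the other KAT tumours.

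Natural killer cells, the other source of Gzmb, were represented by 5 of 10 listed markers. Their sum ranged from 1.61 to 21.8 in KPT, between 3.83 and 38 in KAT and between 2.56 and 27.4 in KPAT. Of the 2 tested markers, 1 was higher in KAT than in KPT, beside 15.6% of all genes. The KAT 2 sum of 38 was nearly all Klra4, which gave 674 reads there and 0 in KAT 5. Klrd1, a receptor of natural killer and cytotoxic T cells, gave 24, 2, 30, 16 and 20 reads in KAT tumours 1 to 5 and 0 to 16 elsewhere. The 8 mast cell and basophil markers, cells that can also make Gzmb, summed to 21.2 to 37.2 in KPT, between 59.5 and 215 in KAT and between 59.5 and 241 in KPAT. Of 6 tested, 1 was higher than in KPT in each, beside 15.6% of all genes in KAT and 9.13% in KPAT. That count is not a result about these markers. The 6 acinar markers summed to 12.7 to 892 in KAT, with KAT 1 the highest, 24.2 to 183 in KPT and 0.872 to 562 in KPAT, none called. Of 8 ductal epithelium markers 4 were lower in KAT than in KPT, beside 13.3% of all genes, and 1 in KPAT than in KPT, beside 7.4%. The ductal sums were 10800 to 18480 in KPT, between 6773 and 11070 in KAT and between 7582 and 10390 in KPAT. The part of a lower epithelial share in the KAT values was not tested.

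The genes most like the CD3 genes over the tumours were mostly lymphocyte genes. Likeness was the Pearson correlation over the 15 tumours between log2 levels and the mean of Cd3d, Cd3e and Cd3g, given as a description because the tumours share 3 genotypes and were ranked over all tested genes. The 8 highest included Gimap3 (r = 0.959), a GTPase gene of lymphocytes, Pax5 (0.956), the B cell transcription factor, Cd6 (0.927) of T cells, Lmod1 (0.923), a smooth muscle gene, Ighd (0.92), the heavy chain of IgD, Cd79b (0.909) of the B cell receptor and H2-Ob (0.904), an MHC class II chain of B cells. With group means removed the values ran from 0.807 for H2-Ob to 0.944 for Pax5. Pax5 was at 12.2, 0.11, 7.52, 3.18 and 2.69 in KAT tumours 1 to 5, 3.26, 2.56, 0.378, 0.528 and 0.178 in KPT and 0.152, 0.296, 0.218, 0.336 and 0 in KPAT. It shared the low KAT 2 value and the high KPT 1 value with the CD3 genes.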

How the data were processed

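Whole tumours were profiled by RNA sequencing, with RNeasy midi extraction, TruSeq RNA libraries and a HiSeq4000, per the labels' protocols. The submitters' processing notes name HISAT2 2.0.4 and the mouse build mm10, which is GRCm38. For the counter, its handling of strand and the scaling, nothing is given in the sources used here. Per gene, the authors deposited a signal value, judged from the values to be whole reads divided by 1 factor per library: 100% of the values came out within 0.01 of a whole number of reads. Recovered depth was 14696138 to 26248484 reads per library, and intervals and limits cover counting error only.

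Normalized counts are deposited values times 19.478, the reads that 1 unit stood for on geometric average. Genes with a mean of at least 10 (16648 of 20636) were fitted as log2(normalized count + 1) over all 15 tumours with limma 3.58.1 in R 4.3.3 (eBayes with trend, Benjamini-Hochberg at 0.05). The fit was tested on simulated data. Symbols and positions came from GENCODE (GRCm38), with 20574 IDs matched, and promoter sequences from RefSeq. Ratios within tumours were compared by exact permutation over 252 assignments. Of the 5 ratios planned, 2 had both genes above the minimum.

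The 10 genes and all lists were chosen with earlier results of these data known. The naming rule took the 2 members of each related list with the smallest p in each comparison, called or not, the other called members of a list being named after their values were seen, and the 8 genes most correlated with the CD3 mean. Some items that the rule or the labels name are not reported here. Klra4 and Klrd1 were chosen after their values were seen. Alternatives were other pseudocounts, minimums and scalings, fits of 2 groups, robust eBayes, array weights, a replicate block, fits without each library in turn, and edgeR 4.0.16 and DESeq2 1.42.0 on recovered reads, which called 4684 and 5712 genes in KAT against KPT. Tables and plots used Python 3.11.15 (pandas 2.3.3, numpy 2.4.6, matplotlib 3.10.9).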

Additional observations from a re-analysis of the deposited data

Results flagged for a closer look

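Of 30 gene and group sets of 5 tumours, 3 held a tumour separated from the other 4 by more than 0.71 of the group's range on the log2(normalized count + 1) scale, where chance alone gives about 1 in 20. Cd3g in KAT 2 was at 1.05, the lowest of the KAT tumours. Trac in KPT 4 was at 0.89, the lowest of the KPT tumours, from 1 read. Pdcd1 in KPAT 2 was at 4.25, the highest of the KPAT tumours, from 25 reads.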

How the results depend on the processing

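In KAT against KPT the number of T cell genes called, 2 with all libraries, was 4 with a pseudocount of 8, with array weights, by DESeq2, and without KPT 3, KAT 2 and KPAT 5. It was 0 with quantile scaling and with the 2 groups alone, 1 with the replicate block (Trac), and 0 to 5 with 1 library left out. In KPAT against KAT it was 3 with array weights and 2 by DESeq2, and 0 in every fit that left out a library. In KPAT against KPT it was 0 under every alternative that gave a value. The minimum mean of 50 and the deposited scale left no member to test. Leaving out KPT 1 and KAT 1, KPT 3, KAT 2 and KPAT 5, and edgeR without a minimum were chosen after seeing the data.

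The replicate numbers did not pair the tumours: deviations of tumours with the same number correlated at -0.209 to 0.246 over 15 pairs, 5 of them over 0.1, and 3 of 15 libraries correlated best with their own number. With the replicate block Pdcd1 in KAT against KPT had adjusted p = 0.0739.

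No ratio passed under any alternative. The replicate block could not have passed whatever the data, since its smallest possible permutation p was 0.0625. The ratio of Cd8a to Cd4 in KAT against KPT was 0.04 with a pseudocount of 0.5 and -0.64 to 0.26 with 1 library left out, and in KPAT against KAT it was 0.12 with a pseudocount of 8. Its range with 1 library left out was -1.71 to -0.73 in KPAT against KPT and -1.64 to -0.7 in KPAT against KAT. Foxp3 to Cd4 ran from -0.83 to 0.02 in KAT against KPT, 0.25 to 1.1 in KPAT against KPT and 0.86 to 1.33 in KPAT against KAT.

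Among the 10 T cell genes, the fold changes that changed sign were all in KPAT against KPT and not called. Cd3g was 0.01 without KPAT 5, and 0.01 without KPT 3, KAT 2 and KPAT 5. Foxp3 was 0.11 with a pseudocount of 0.5, 0.44 without KPT 3, KAT 2 and KPAT 5, and -0.74 to 0.37 with 1 library left out. Pdcd1 was -0.14 with quantile scaling and -0.26 to 0.59 with 1 library left out. Gzmb was 0.02 by edgeR without a minimum. The cause of these changes was not tested. Depth limits all of these values, since 51 of 150 rest on 3 reads or fewer.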
